A study of Mus musculus with 18 samples.

Results

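The interferon-stimulated effector genes outside the OAS, IRG and GBP, MHC and signalling families were followed in MEFs (mouse embryonic fibroblasts) whose serum was exchanged. They were chosen by name from the raw-count table, as 43 of its 55487 genes, and were ranked by how far each had come toward the level of the new serum by 24 h. RNA had been sequenced from 18 libraries of wild-type MEFs, a cell line, in 6 groups of 3. Scm cells were kept with S-FBS, a serum under which MEFs were sensitive to ferroptosis, an iron-dependent death by lipid peroxidation, and Rcm cells with R-FBS, under which they resisted it. R-Scm cells had grown in Rcm and were harvested 12 h or 24 h after a move into Scm. S-Rcm cells had grown in Scm and were harvested at the same times after a move into Rcm. No drug was named in the labels of any group. All groups are of 1 line. The study's methods call its culture experiments independently repeated, but the labels tie no library to a culture, so that p-values measure the spread between these libraries.

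Type I interferons bind a receptor on the cell surface and act through receptor-bound kinases and transcription factors, which bind interferon-stimulated response elements beside their target genes. The products of those targets limit viruses at many steps, from entry and nucleotide supply to RNA sensing and protein modification. Fibroblasts are a classic source of interferon beta and respond to it themselves.

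Sequences beside the starts of 6 members are shown because they hold the response element's core, the letters GAAA, any 2 bases, GAAA, on either strand. Capitals mark the matches, overlapping ones joined, in stretches of 70 bases from RefSeq promoter windows on GRCm38.p6, written 5′ to 3′ along the gene's strand.
Isg15 (chr4:156200849-156200918, minus strand): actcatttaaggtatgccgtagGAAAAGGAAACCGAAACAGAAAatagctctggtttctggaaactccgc
Ifit1 (chr19:34640769-34640838, plus strand): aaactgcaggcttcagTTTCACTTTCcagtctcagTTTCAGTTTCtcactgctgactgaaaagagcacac
Ifit3 (chr19:34583359-34583428, plus strand): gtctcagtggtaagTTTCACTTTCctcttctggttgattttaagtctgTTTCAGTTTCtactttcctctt
Ifit3b (chr19:34607757-34607826, plus strand): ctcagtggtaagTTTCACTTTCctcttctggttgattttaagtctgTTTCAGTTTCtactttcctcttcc
Bst2 (chr8:71537553-71537622, minus strand): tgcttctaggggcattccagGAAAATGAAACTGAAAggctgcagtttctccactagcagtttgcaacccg
Rsad2 (chr12:26456528-26456597, minus strand): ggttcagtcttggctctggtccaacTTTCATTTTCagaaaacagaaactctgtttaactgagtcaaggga

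A window of 250 bases before and 50 after the start was at hand for 34 members, and 13 of them (38.2%) held a match, against 1079 of 27025 genes (3.99%). No window was at hand for Mx2, Usp18, Ifi204, Parp9, Zbp1, Rtp4, Mx1, Ifi27 and Parp14. A match describes letters and does not show binding, and Cmpk2 and Ifit2 had none in this window. Ifit1, Ifit2, Ifit3 and Ifit3b lie within one stretch of chromosome 19, Rsad2 and Cmpk2 are neighbours on chromosome 12, and Parp9, Dtx3l and Parp14 are neighbours on chromosome 16.

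Total counts ran from 14534906 to 20313715 per library. Replicates of a group differed by at least 9.72 times the sampling noise (chi-square per degree of freedom), so that none was a copy. The 8 fibroblast markers, led by Vim and the collagen genes, summed to between 8053 and 12530 CPM, the count scaled to library size, in every library. Of 8 macrophage and leukocyte markers, Adgre1 and Tyrobp were at 0 in all libraries and Ptprc had at most 3 counts, while Cd14 (7.01 to 15.9 CPM) and Cd68 (2.02 to 4.91 CPM) were present in every library. The list summed to between 14.9 and 17.9 CPM in Scm, between 11.6 and 15.2 CPM in Rcm, between 15.7 and 19.5 CPM in R-Scm 12 h and between 17.3 and 18.5 CPM in S-Rcm 12 h. In bulk RNA, fewer cells of a type and less RNA per cell cannot be told apart.

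Of the members, 42 passed the filter on low counts, and 35 passed it in every group. Epsti1 did not pass, with 0 to 5 counts in each library. Rsad2, Mx1, Cmpk2, Trim30a, Zbp1, Sp100 and Phf11d passed through some groups but not all, where they were higher, so that they had to differ. Per kilobase of exon, Ifitm3 had the highest mean over all libraries (389 CPM per kb), followed by Bst2 (108 CPM per kb) and Shisa5 (37.9 CPM per kb).

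**Figure D1:**
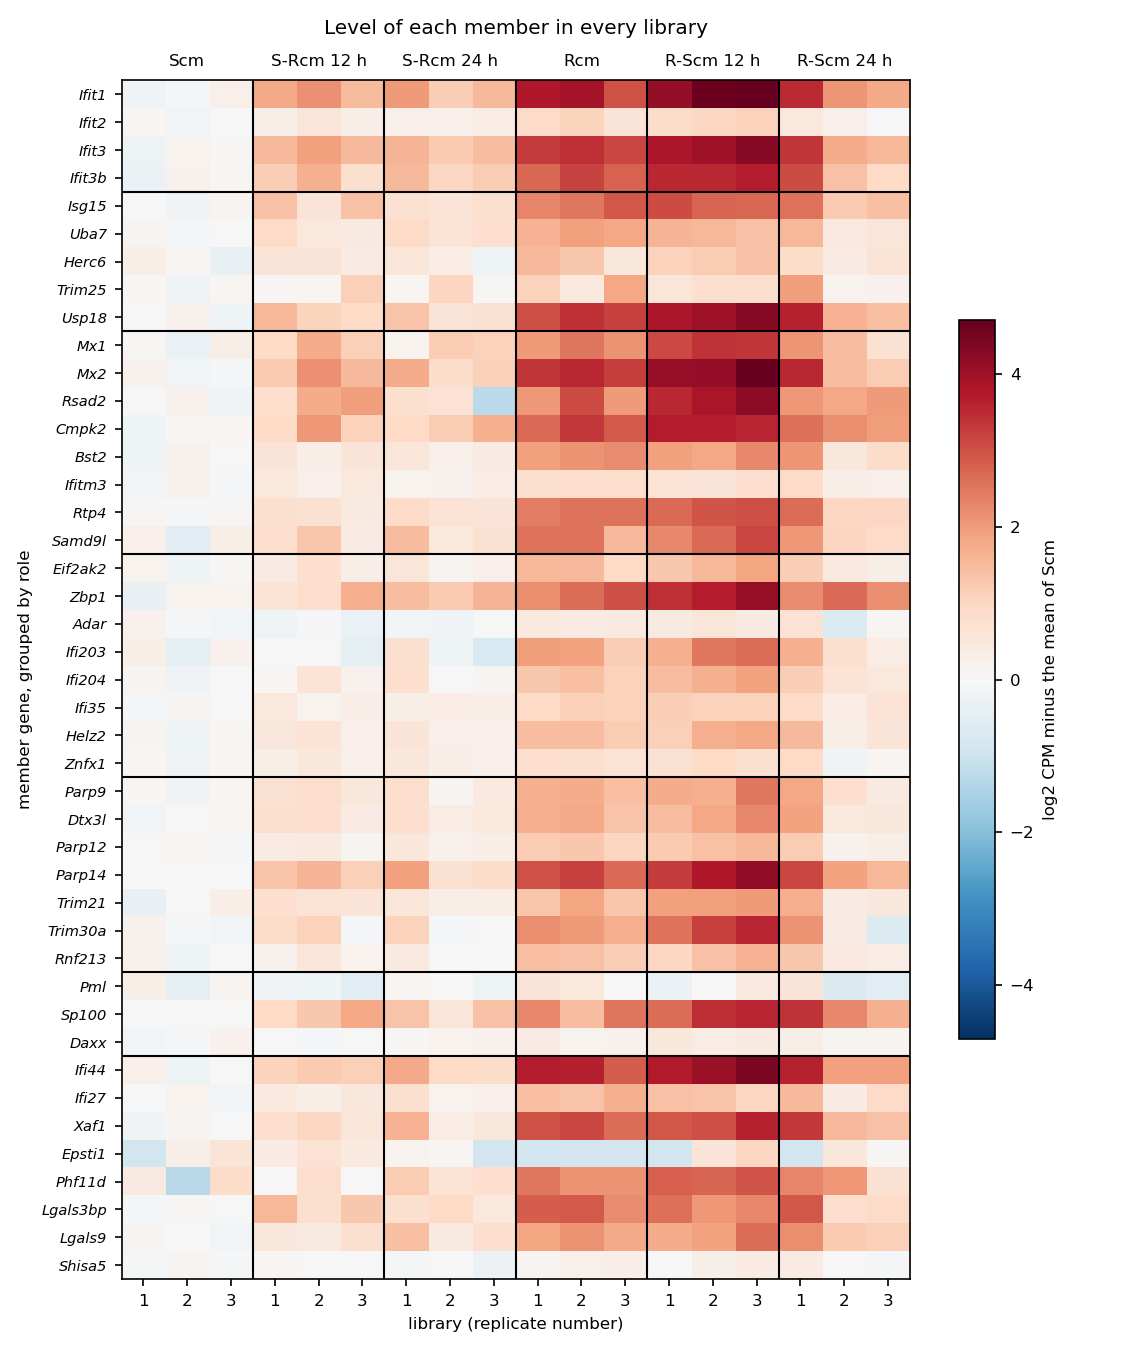
Level of 43 members (rows, grouped by role) in 18 libraries (columns), as log2 CPM minus the mean of Scm, with red above and blue below that mean. The columns of Rcm and R-Scm 12 h are the reddest, and R-Scm 24 h replicate 1 looks like Rcm while replicates 2 and 3 are paler.

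R-Scm 24 h replicate 1 stood apart from the other 2 libraries of its group. Over the members, the median log2 CPM above the Scm mean was 2.01 in that library, against 0.70 and 0.69 in replicates 2 and 3 and 1.75 to 1.91 in Rcm. Most counts of member calls are given with and without it, as are its group's median return and the order of the returns. The cause was not tested.

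The opposite exchanges were compared at 12 h, since neither group was used in the ranking. The members had been chosen with earlier results of these data known, so that the comparison is no independent test of them. The groups also came from different sera, and Rcm was called higher than Scm for 35 of 42 members. A gene was called when its absolute log2 fold change was above 0.58 and its Benjamini-Hochberg adjusted p over all 15381 genes tested, from edgeR's quasi-likelihood test, was under 0.05. Of the 42 members tested, 32 were higher in R-Scm 12 h, where 1.60% of all genes tested were called higher, and all 42 fold changes lay above 0. The median log2 fold change was 1.43 over the members and -0.0097 over all genes tested. The libraries of the groups did not overlap, with R-Scm 12 h higher, for 39 members, against 14.3% of all genes tested. The values over 42 members and the count of 39 include members whose difference was built in by the filter. Of the 35 members that passed the filter in every group, 25 were called, and their median log2 fold change was 1.23. Leaving out S-Rcm 12 h replicate 1 or R-Scm 12 h replicate 3 left 18 calls each over the 42 members, and leaving out S-Rcm 12 h replicate 3 left 20. The share of all genes called in those fits was not computed, so that a drop in the members cannot be told from a loss of calls over all genes. The count was 35 without R-Scm 24 h replicate 1 in the shared fit, where 1.89% of all genes tested were called higher.

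**Figure D2:**
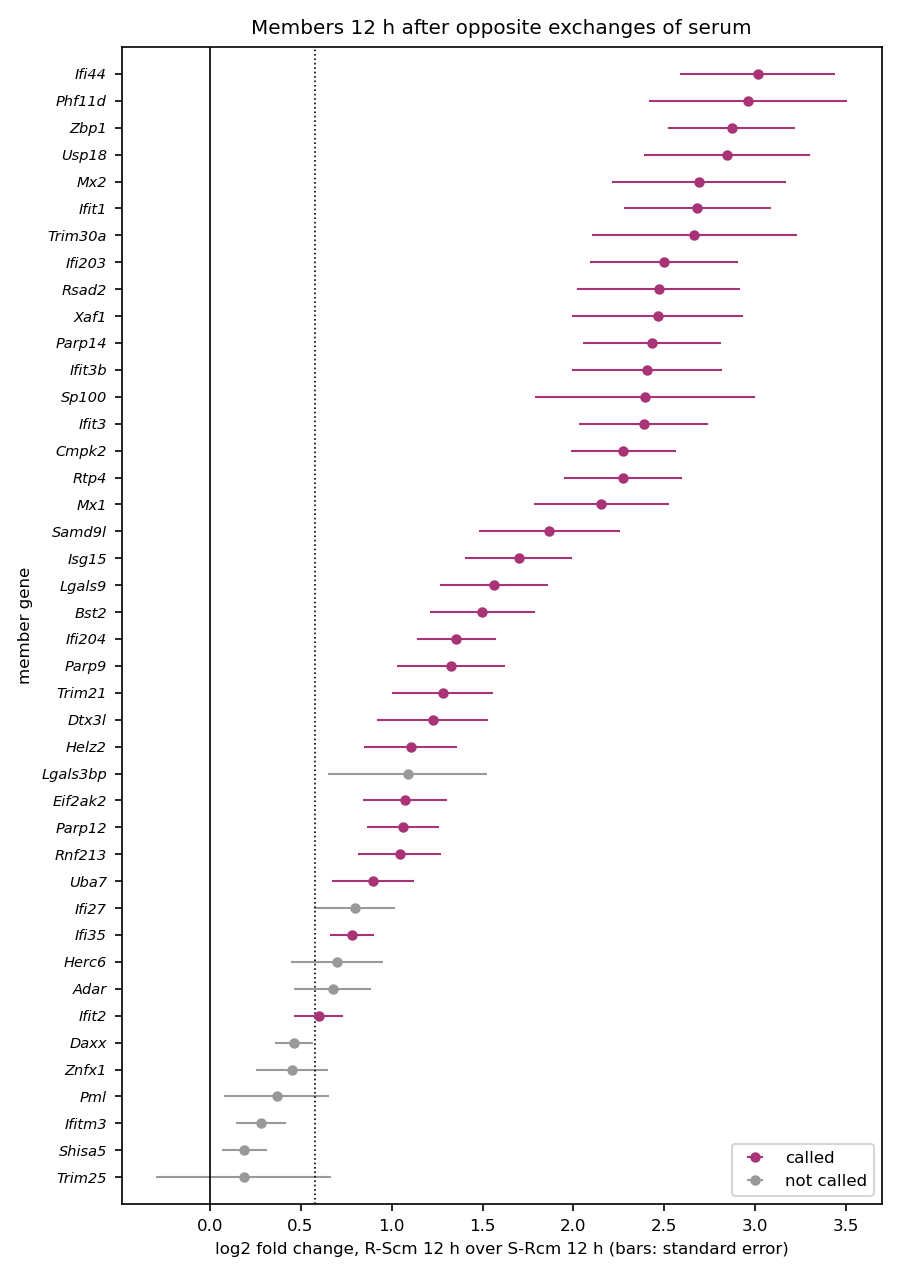
Log2 fold change of 42 members, R-Scm 12 h over S-Rcm 12 h, with the standard error as bars, the called genes in purple and the others in grey. The dotted line marks 0.58, and every point lies above 0, from 0.19 for Trim25 to 3.01 for Ifi44.

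All 4 genes of the IFIT family, whose member Ifit1 binds viral RNA with a cap that lacks methylation, were called. Ifit1 stood at 95.5, 132 and 142 CPM in R-Scm 12 h and at 18.7, 23.6 and 15.1 CPM in S-Rcm 12 h. The groups did not overlap, and the log2 fold change was 2.68 ± 0.40 (SE, adjusted p = 0.00318, edgeR). Ifit3 stood at 53.0, 59.7 and 73.8 CPM against 10.8, 14.1 and 10.7 CPM, a log2 fold change of 2.39 ± 0.35 (SE, adjusted p = 0.00281, edgeR). Ifit3b is 97.8% identical to Ifit3 over 1700 bases, so that the split of reads between them is uncertain. Ifit2 differed least within the family, with 51.4, 56.5 and 61.1 CPM against 34.2, 42.4 and 35.0 CPM and a log2 fold change of 0.60 ± 0.13 (SE).

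Among the 5 genes of the ISG15 system, 3 were called. Isg15, a ubiquitin-like modifier that is joined to other proteins, had 54.5, 43.5 and 41.8 CPM in R-Scm 12 h and 16.6, 9.69 and 16.7 CPM in S-Rcm 12 h. Its log2 fold change was 1.70 ± 0.29 (SE, adjusted p = 0.00526, edgeR). Usp18, the protease that removes Isg15 and restrains the interferon receptor, had 51.3, 57.3 and 71.5 CPM against 10.6, 7.45 and 6.97 CPM. It gave a log2 fold change of 2.84 ± 0.46 (SE, adjusted p = 0.00427, edgeR), and its lowest R-Scm 12 h library was far above its highest S-Rcm 12 h library. Uba7, the enzyme that activates Isg15, had 19.6, 19.2 and 16.6 CPM against 12.1, 8.97 and 8.72 CPM and was called at a log2 fold change of 0.90 ± 0.23 (SE). Herc6, the ligase of mouse Isg15, had a log2 fold change of 0.70 (adjusted p = 0.13, edgeR). Trim25, a ubiquitin ligase of RNA sensing, had one of 0.19 with a 95% interval from -0.85 to 1.22.

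Of the 8 antiviral GTPases and membrane effectors, 7 were called. Cmpk2, a mitochondrial nucleotide kinase, stood at 8.81, 8.70 and 8.22 CPM against 1.21, 2.75 and 1.35 CPM, a log2 fold change of 2.27 ± 0.29 (SE, adjusted p = 0.000799, edgeR). Its neighbour Rsad2, or viperin, which makes a nucleotide that ends viral RNA chains, stood at 3.23, 3.96 and 5.15 CPM against 0.383, 0.841 and 0.995 CPM. Both genes were low in level. Cmpk2 passed the filter in both 12 h groups and was well separated between them. Rsad2 passed it in Rcm and both R-Scm groups but not in S-Rcm 12 h, so that its difference was built in. Rtp4, a chaperone of receptor proteins, had 22.6, 28.2 and 29.2 CPM against 5.97, 5.83 and 4.74 CPM and a log2 fold change of 2.27 ± 0.32 (SE, adjusted p = 0.00215, edgeR). Bst2, or tetherin, which holds budding virus at the cell surface, had 152, 141 and 192 CPM against 61.1, 49.8 and 60.5 CPM. The Mx genes, dynamin-like GTPases, had log2 fold changes of 2.15 for Mx1 and 2.69 for Mx2, which are 95.3% identical over 843 bases. Mx1 passed the filter in Rcm and R-Scm 12 h alone, so that its difference was also built in. Ifitm3, which hinders the fusion of virus in endosomes, was not called, with 298, 293 and 331 CPM against 268, 225 and 266 CPM. Its log2 fold change was 0.28 with a 95% interval from -0.012 to 0.57, although its libraries did not overlap.

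Of the 8 genes of nucleic acid sensing and editing, 6 were called. Zbp1, a sensor of Z-form nucleic acid that can start necroptosis, had 2.96, 3.60 and 4.78 CPM in R-Scm 12 h and 0.329, 0.392 and 0.820 CPM in S-Rcm 12 h. Its log2 fold change was 2.87 ± 0.35 (SE, adjusted p = 0.00057, edgeR), and it passed the filter through Rcm and both R-Scm groups but not in S-Rcm 12 h, so that a difference was built in. Ifi204, a DNA sensor, had 37.1, 44.2 and 51.6 CPM against 14.7, 21.4 and 15.9 CPM, and Ifi203 of the same family had 15.5, 27.6 and 30.2 CPM against 4.71, 4.71 and 3.51 CPM. Both have near copies, so that their counts are uncertain. Ifi35 was separated by a smaller fold, with 47.7, 45.3 and 44.6 CPM against 30.1, 23.4 and 26.5 CPM (log2 fold change 0.78 ± 0.12 SE, adjusted p = 0.00292, edgeR). Eif2ak2, the kinase PKR that halts translation on double-stranded RNA, had 85.4, 104 and 131 CPM against 46.1, 61.3 and 44.8 CPM and was called. Znfx1, an RNA helicase, and Adar, which edits adenosine to inosine, were not called, at log2 fold changes of 0.45 and 0.68 (adjusted p = 0.20 and 0.0835, edgeR).

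All 7 genes of ADP-ribosylation and ubiquitin ligation were called, with log2 fold changes from 1.04 for Rnf213 to 2.66 for Trim30a. Parp14, an ADP-ribosyltransferase, had 31.1, 42.7 and 56.9 CPM against 7.995, 9.47 and 6.73 CPM, a log2 fold change of 2.43 ± 0.38 (SE, adjusted p = 0.00318, edgeR). Rnf213, a very large ubiquitin ligase, had 324, 426 and 504 CPM against 186, 240.5 and 181 CPM. Trim30a had 2.35, 3.86 and 4.97 CPM against 0.657, 0.784 and 0.293 CPM. It passed the filter in Rcm and R-Scm 12 h alone, so that its difference was built in. Parp9 and Dtx3l, whose proteins form a complex, share 458 exon bases on opposite strands, and whether the counting used strand is not given in the sources used here.

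Of the nuclear body genes, Pml and Daxx passed the filter in every group and were not called. Sp100 was called, but it passed the filter in R-Scm 12 h alone and so had to differ. It had 11, 23 and 21 counts in R-Scm 12 h and 2, 3 and 5 counts in S-Rcm 12 h, and it has near copies elsewhere in the genome. Daxx reached an adjusted p of 0.0211 (edgeR) at a log2 fold change of 0.46, below the fold required. Among the remaining members, Ifi44 showed the largest fold of all, with 24.8, 31.2 and 40.3 CPM against 3.72, 4.26 and 3.92 CPM (log2 fold change 3.01 ± 0.43 SE, adjusted p = 0.00224, edgeR). Lgals9, a galectin, had 27.1, 29.9 and 49.9 CPM against 11.8, 10.8 and 13.6 CPM and was called. Ifi27, Lgals3bp and Shisa5 were not called.

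Outside the members, 67 other genes of the interferon pathway were in the table and 56 were tested. In R-Scm 12 h, 27 of them were called higher and 1 lower than in S-Rcm 12 h. Of all genes tested 1.60% were called higher there, and DESeq2 called 1.66% of the genes it tested lower. No ligand passed the filter. The 9 ligand genes together had 2 to 5 counts per library in R-Scm 12 h, 0 to 2 in S-Rcm 12 h and in both 24 h groups, 0 to 3 in Scm and 0 in Rcm. Among the transcription factors, Irf7 (log2 fold change 1.44) and Irf9 (1.31) were called, and Stat2 was not at 0.96 (adjusted p = 0.0773, edgeR). Counts for the other lists were 11 of 12 for IRG and GBP genes, 6 of 8 for OAS genes, 4 of 12 for MHC class I genes, 2 of 7 for sensors and 0 of 4 for inhibitors. The 7 receptors and kinases included 1 higher and 1 lower gene.

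The 12 h groups were also compared with the serum they had left, whose libraries the ranking used. R-Scm 12 h was close to or above Rcm for most members. The log2 fold change lay below 0 for 7 of 42, down to -0.53 for Trim25. In 1 member, Uba7, every R-Scm 12 h library was below every Rcm library, a direction whose share over all genes was not computed. Of 42 members, 1 was called higher, where 1.51% of all genes tested were, and the median log2 fold change was 0.29 against -0.0077 over all genes tested. Without R-Scm 24 h replicate 1 in the shared fit the count was 7, where 1.92% of all genes tested were called. The called member was Zbp1, with 1.19, 1.66 and 2.23 CPM in Rcm and a log2 fold change of 1.14 ± 0.31 (SE, adjusted p = 0.043, edgeR), and 0 of the 35 members that passed the filter in every group were called. The median log2 fold change of those 35 was 0.22. The call of Zbp1 was lost without Rcm replicate 1 or 2, or without R-Scm 12 h replicate 2 or 3. It was also lost without the filter on low counts and when the 2 groups were fitted alone. In 17 members every R-Scm 12 h library was above every Rcm library, against 11.7% of all genes tested. They included Ifit3, whose Rcm libraries held 37.0, 40.9 and 33.3 CPM (log2 fold change 0.75, adjusted p = 0.247, edgeR), and Usp18, whose Rcm libraries held 29.8, 39.7 and 33.9 CPM (0.80, adjusted p = 0.354, edgeR).

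S-Rcm 12 h lay above Scm by less than the gap between the sera. There, 2 members were called higher, where 0.598% of all genes tested were, and the median log2 fold change was 0.64 against 0.019 over all genes tested. The count was 11 without R-Scm 24 h replicate 1 in the shared fit, where 1.04% of all genes tested were called. It was also 11 when the 2 groups were fitted alone, a fit whose share over all genes was not computed. In 32 members every S-Rcm 12 h library was above every Scm library, against 14.4% of all genes tested. The called members were Ifit3, with 3.10, 4.09 and 3.85 CPM in Scm (log2 fold change 1.70 ± 0.38 SE, adjusted p = 0.0409, edgeR), and Cmpk2, with 0.481, 0.624 and 0.618 CPM in Scm (1.62 ± 0.36 SE, adjusted p = 0.0323, edgeR). Cmpk2 passed the filter in every group but Scm, so that it had to be lower there, and of the 35 members that passed in every group 1 was called. The median log2 fold change of those 35 was 0.53. The call of Ifit3 was lost when any 1 of the 6 libraries was left out, and that of Cmpk2 without any 1 of the 3 Scm libraries or without S-Rcm 12 h replicate 2 or 3. Isg15 had 6.47, 5.68 and 7.01 CPM in Scm and did not pass (log2 fold change 1.17, adjusted p = 0.0818, edgeR).

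**Figure D3:**
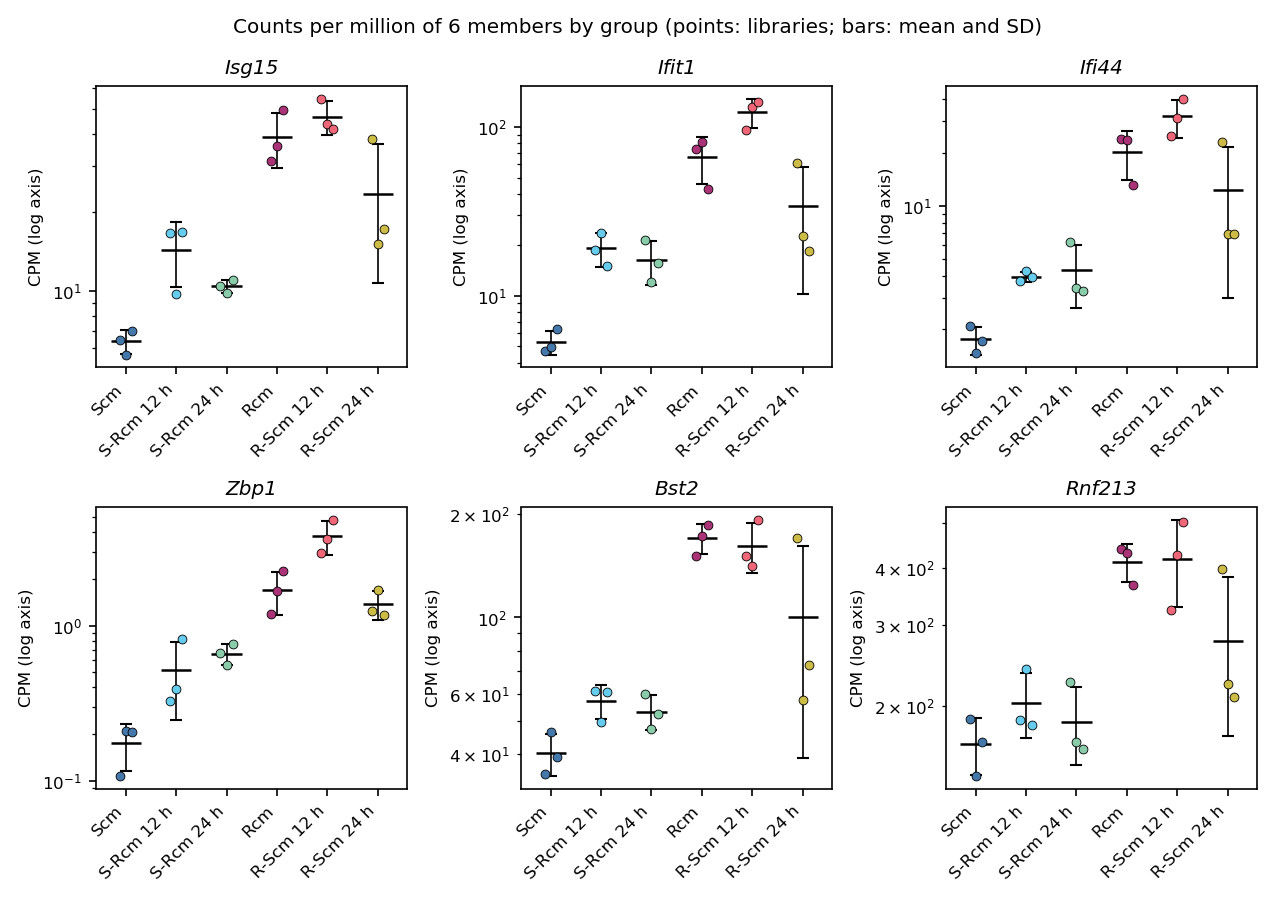
CPM on a log axis for Isg15, Ifit1, Ifi44, Zbp1, Bst2 and Rnf213 in 6 groups, with a point for each library and bars for the mean and SD (n = 3). R-Scm 12 h lies with Rcm or above it, and in R-Scm 24 h 1 library lies near Rcm for each gene but Zbp1, where all 3 do.

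The steady sera and the 24 h groups chose the ranking, and their values are a description. Rcm was called higher than Scm for 35 of 42 members, where 1.67% of all genes tested were. Without R-Scm 24 h replicate 1 in the shared fit the count was 37, where 2.18% of all genes tested were called higher. With all libraries, 29 of the 35 members that passed the filter in every group were called. Ifit1 had 4.71, 4.99 and 6.32 CPM in Scm and 74.4, 82.0 and 43.1 CPM in Rcm, and Isg15 had 31.5, 36.0 and 49.4 CPM in Rcm. Sp100 had 0 counts in each Scm library and 7, 3 and 11 counts in Rcm. In R-Scm 24 h against Rcm, 0 members were called lower, where 0.195% of all genes tested were, with 15 members lower at an unadjusted p under 0.05 (5.47% of all genes tested) and 2 called by DESeq2 (0.593% of the genes it tested). Without R-Scm 24 h replicate 1 it was 26 members, where 2.13% of all genes tested were, and the median log2 fold change moved from -0.54 to -1.001. In S-Rcm 24 h against Scm, 0 members were called higher, where 0.221% of all genes tested were, with 16 higher at an unadjusted p under 0.05 (4.79% of all genes tested) and 4 called by DESeq2 (0.693% of the genes it tested). That comparison gave 5 calls, where 0.529% of all genes tested were called, when R-Scm 24 h replicate 1 was left out of the shared fit.

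Against the serum entered, whose libraries the ranking also used, R-Scm 12 h was called higher than Scm for 37 of 42 members, where 3.10% of all genes tested were, and R-Scm 24 h for 15, where 0.507% of all genes tested were. The latter count was 9 without R-Scm 24 h replicate 1, where 0.344% of all genes tested were. S-Rcm 12 h was called lower than Rcm for 17 members, where 0.449% of all genes tested were, and S-Rcm 24 h for 8, where 0.156% of all genes tested were. Isg15, Ifit3, Cmpk2, Rtp4, Bst2, Ifi35, Ifi44 and Rnf213 made up the latter 8. Without R-Scm 24 h replicate 1 in the fit those counts were 30 and 26, where 1.03% and 0.446% of all genes tested were called lower. Some members had to differ through the filter. With all libraries, 35 members passed it in every group. Of these, R-Scm was called higher than Scm for 30 at 12 h and 12 at 24 h. S-Rcm was called lower than Rcm for 15 at 12 h and 7 at 24 h.

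The return was set at 0% for the mean log2 CPM of the serum left and 100% for that of the serum entered. It was computed for 38 members whose log2 fold change between Rcm and Scm was above 0.58. Znfx1 (0.73) lay just inside that limit and Adar (0.44) just outside, and Pml, Daxx and Shisa5 were also left out. Moved from Rcm to Scm, the members had a median return of -20.0% at 12 h, with 32 of 38 below 0, beyond the level of the serum left. At 24 h the median was 38.2%, and the medians of the 3 libraries were -3.56%, 55.8% and 60.2%. Without replicate 1 the median was 58.2%. Moved from Scm to Rcm, the members had a median return of 39.4% at 12 h and 29.9% at 24 h, and the 24 h libraries had medians of 49.5%, 25.6% and 29.2%. With all libraries, no member's mean reached the level of the new serum in either direction. Trim30a (106%) and Znfx1 (105.7%) passed it without R-Scm 24 h replicate 1.

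**Figure D4:**
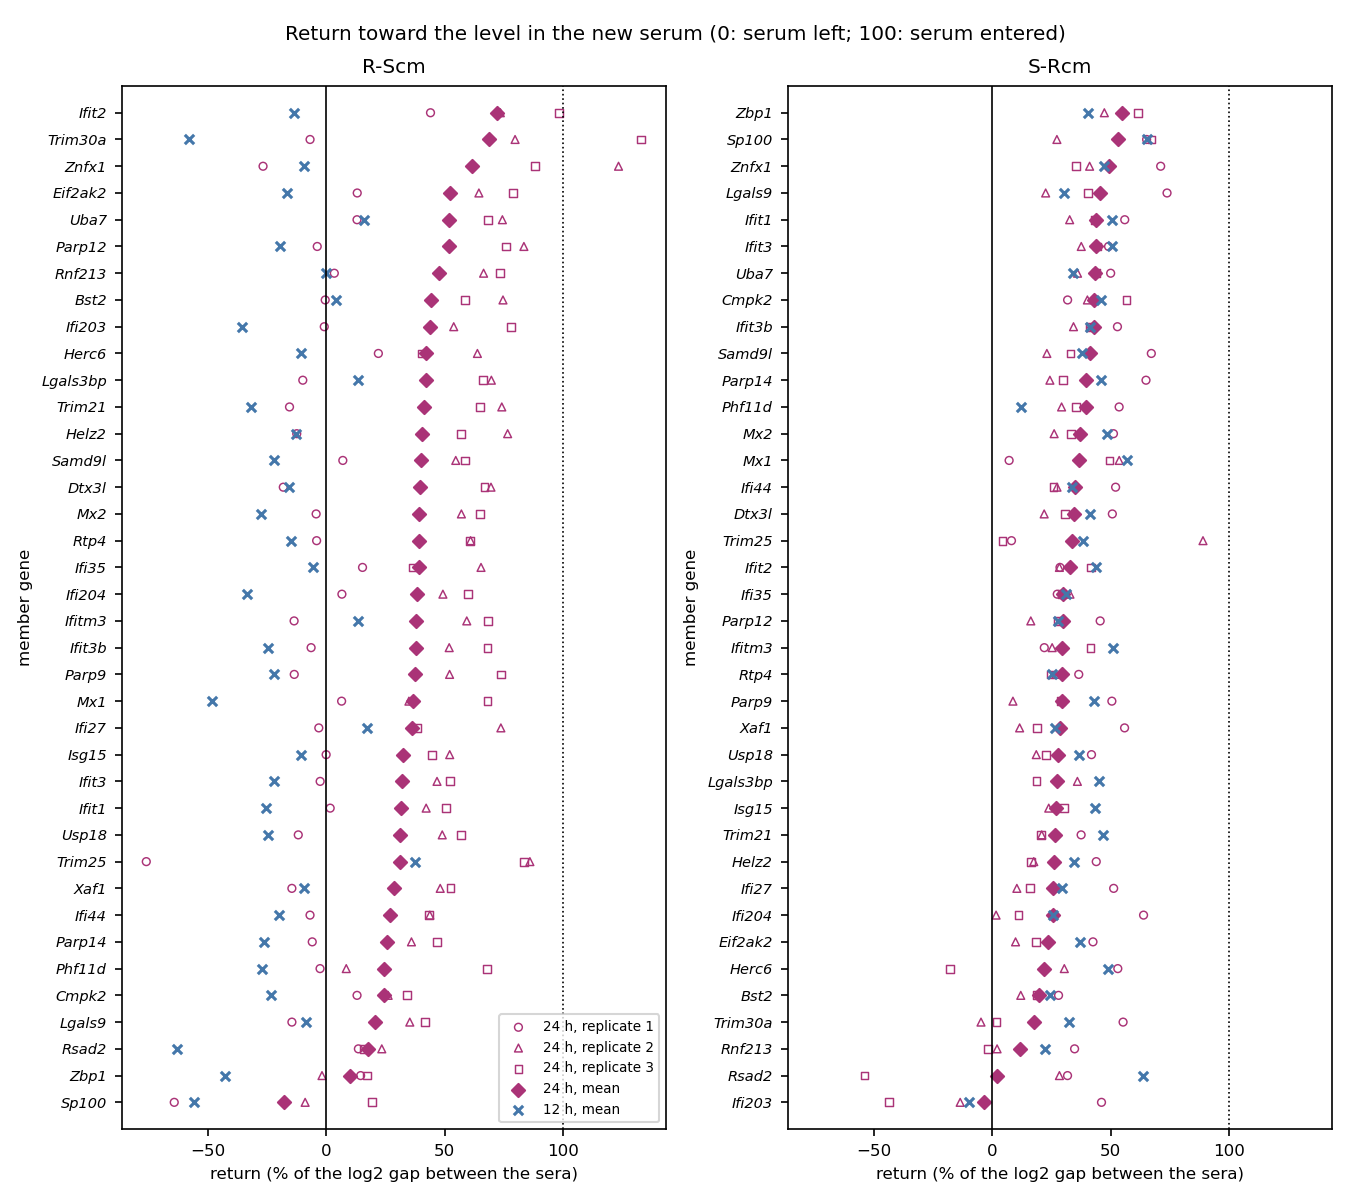
Return of 38 members as a percent of the log2 gap between the sera, for R-Scm (left) and S-Rcm (right), with diamonds for the 24 h mean, open symbols for the 24 h libraries and crosses for the 12 h mean. In R-Scm most crosses lie left of 0 and replicate 1 (circles) lies near 0, while in S-Rcm the 12 h and 24 h means lie mostly between 0 and 50%.

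In R-Scm the highest 24 h returns were those of Ifit2 (71.9% ± 27.2, SD, n = 3), Trim30a (68.6% ± 70.6), Znfx1 (61.5% ± 78.5), Eif2ak2 (52.0% ± 34.5) and Uba7 (51.9% ± 33.9). Ifit2 had 39.9, 33.5 and 28.9 CPM in R-Scm 24 h, beside 52.8, 59.8 and 44.0 CPM in Rcm and 30.4, 26.3 and 29.1 CPM in Scm. Znfx1 had 72.6, 34.0 and 40.6 CPM, where replicate 1 lay above all Rcm libraries (66.2, 65.1 and 59.1 CPM) and the others within the range of Scm (40.6, 33.7 and 40.8 CPM). Trim30a had 1.71, 0.442 and 0.153 CPM, and only replicate 1 lay within the range of Rcm (1.81, 1.60 and 1.27 CPM). Eif2ak2 had 80.0, 49.6 and 43.4 CPM and Uba7 had 19.1, 8.84 and 9.53 CPM, again with replicate 1 highest. Without replicate 1 the highest returns were those of Trim30a, Znfx1, Ifit2 (85.9%), Trim25 (84.6%) and Parp12 (79.7%), and Trim25 moved from place 29 to place 4.

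The lowest returns in R-Scm were those of Cmpk2 (24.4% ± 10.7), Lgals9 (20.7% ± 30.7), Rsad2 (17.5% ± 5.20), Zbp1 (9.90% ± 10.3) and Sp100 (-18.0% ± 42.6). Zbp1 had 1.24, 1.70 and 1.17 CPM at 24 h, all within or near the range of Rcm. Rsad2 had 1.06, 0.884 and 1.02 CPM, close to the lower Rcm libraries (1.06 and 1.02 CPM) and below the third, at 2.26 CPM. For these 2 genes replicate 1 did not stand apart. Cmpk2 had 4.01, 3.03 and 2.55 CPM, below its Rcm libraries (4.30, 6.79 and 4.98 CPM), and Lgals9 had 37.2, 19.1 and 17.6 CPM, with replicate 1 above all Rcm libraries (29.1, 35.4 and 27.9 CPM). Sp100 had 19, 7 and 5 counts, and its rank rests on few reads. The SDs of most members exceeded the steps between neighbours in the ranking, so that the order inside it is loose. Without replicate 1 the lowest were Phf11d (38.1%), Cmpk2 (30.1%), Rsad2 (19.5%), Zbp1 (7.63%) and Sp100 (5.18%).

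In S-Rcm the highest 24 h returns were those of Zbp1 (54.7% ± 7.17), Sp100 (53.2% ± 22.5), Znfx1 (49.1% ± 19.2), Lgals9 (45.6% ± 26.0) and Ifit1 (43.9% ± 11.7). Zbp1 had 0.663, 0.559 and 0.759 CPM, above all Scm libraries (0.107, 0.208 and 0.206 CPM) and below all Rcm libraries. It passed the filter in neither Scm nor S-Rcm 24 h, so that its place below Rcm was built in. Sp100 had 0.056 to 0.19 CPM in S-Rcm 24 h and 0 in Scm, and its rank rests on few reads here too. Ifit1 had 21.4, 12.0 and 15.6 CPM, between the sera in each library. Lgals9 had 21.6, 10.8 and 13.8 CPM, and Znfx1 had 54.8, 47.0 and 45.7 CPM.

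The lowest in S-Rcm were Bst2 (19.5% ± 8.01), Trim30a (17.4% ± 32.9), Rnf213 (11.6% ± 20.1), Rsad2 (1.98% ± 48.6) and Ifi203 (-3.75% ± 45.7). Bst2 had 59.8, 47.5 and 52.4 CPM, above its Scm libraries (35.1, 46.3 and 39.2 CPM) and far below its Rcm libraries (152, 173 and 185 CPM). Rnf213 had 225, 166 and 161 CPM, of which 2 libraries lay within the range of Scm (187, 140.3 and 166 CPM). Rsad2 had 0.361, 0.335 and 0 CPM, and Ifi203 had 8.25, 4.08 and 2.85 CPM around a Scm range of 3.47 to 5.78 CPM.

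Between 12 h and 24 h in Scm, 7 members were called lower in R-Scm, where 0.442% of all genes tested were. They were Ifit1, Ifit2, Ifit3, Mx1, Rsad2, Zbp1 and Cmpk2. Mx1 passed the filter in Rcm and R-Scm 12 h alone, so that its difference was built in. Rsad2, Zbp1 and Cmpk2 passed it in both R-Scm groups but not in every group. Of the 35 members that passed it in every group, 3 were called lower. Without R-Scm 24 h replicate 1 the count over 42 members was 32, where 1.43% of all genes tested were called lower. Rsad2 went from 3.23, 3.96 and 5.15 CPM to 1.06, 0.884 and 1.02 CPM, with no overlap. Between 12 h and 24 h in S-Rcm, 0 members were called lower by edgeR, where 0.0910% of all genes tested were, with 1 member lower at an unadjusted p under 0.05 (4.56% of all genes tested) and 0 called by DESeq2. The change from 12 h to 24 h was also tested between the exchanges, and no gene reached an adjusted p under 0.05 (edgeR interaction). Ifit1 had a log2 difference of -1.62 (adjusted p = 0.818, edgeR interaction). At an unadjusted p under 0.05 there were 22 of 42 members. The share of all genes tested at that p was not computed, so that this count cannot be weighed. Without R-Scm 24 h replicate 1, a choice made after seeing its values, 10 members and 0.191% of all genes tested reached an adjusted p under 0.05. Ifit1 was among them at -2.36 (adjusted p = 0.0225, edgeR).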

How the data were processed

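The members and lists were chosen with earlier results of these data known. The authors isolated RNA with the RNeasy mini kit, made paired-end mRNA libraries, aligned reads with HISAT2 to GRCm38 and deposited raw counts per gene, without normalization; the counting tool, its use of strand and its handling of reads with several alignments are not given in the sources used here. Columns were matched to samples by their labels. Genes were kept by edgeR's filterByExpr (15381 of 55487), scaled by TMM and fitted with a robust quasi-likelihood model over 18 libraries, a step tested on simulated data. CPM use TMM-scaled totals, and log2 CPM a prior count of 2. Intervals are at 95%. Per-library values were given for the 10 members with the smallest adjusted p at 12 h, the 5 highest and 5 lowest returns in each direction, the 2 most abundant members, Isg15 and Usp18. Gene positions, exon lengths and overlaps came from GENCODE M21 on GRCm38, and near copies (at least 95% identity over 200 bases) from blastn. Replicate numbers, taken from sample titles, did not pair libraries (correlation of deviations -0.196 to 0.346); column names number 3 groups otherwise, and their numbers did not pair them either (-0.208 to 0.165). Alternatives were RLE scaling, no filter, DESeq2, 2 groups alone, a replicate block and leaving out each library. R 4.3.3, edgeR 4.0.16 and DESeq2 1.42.0 were used.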

Additional observations from a re-analysis of the deposited data

How the results depend on the processing

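For R-Scm 12 h against S-Rcm 12 h, the 32 calls became 30 to 33 under another scaling, filter, tool or fit and 18 to 31 with 1 library left out, and the replicate block gave 32. For R-Scm 12 h against Rcm, the single call became 0 without the filter and 2 with DESeq2 (2.14% of the genes it tested). It became 7 in the fit without R-Scm 24 h replicate 1, an alternative chosen after seeing the data. With 1 library left out it was 0 to 1. For S-Rcm 12 h against Scm, the 2 calls became 1 without the filter, 1 with the replicate block and 6 with DESeq2 (1.24% of the genes it tested). They became 11 with the 2 groups alone, 11 without R-Scm 24 h replicate 1, and 0 to 1 with 1 library left out. The median log2 fold change of that comparison moved from 0.64 to 0.55 with the 2 groups alone. The median of Rcm against Scm ran from 1.78 to 1.94 with 1 library left out. For R-Scm 24 h against Rcm, the 0 calls became 1 without the filter and 2 with DESeq2, and ran from 0 to 26 with 1 library left out. For S-Rcm 24 h against Scm, the 0 calls became 4 with DESeq2 (0.693% of the genes it tested). They became 4 with the 2 groups alone and 5 without R-Scm 24 h replicate 1. The share of all genes called was not computed for RLE scaling, no filter, the replicate block or the fits of 2 groups alone. Among the fits with 1 library left out, it was computed only for that without R-Scm 24 h replicate 1. The other counts cannot be weighed against all genes. The block changed no other count by over 1.5 times, and it lost the call of Ifit3 in S-Rcm 12 h. On the CPM scale the median 24 h return was 47.1% in R-Scm and 19.1% in S-Rcm. Of 156 alternatives of single named results, 136 kept their call, 20 lost it and 0 reversed. The causes were not tested. With 3 libraries a group and 1 library apart in R-Scm 24 h, counts at 24 h depend on that library.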
